A study of Rattus norvegicus with 36 samples.

Results

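The Bcl2 family of apoptosis regulators was followed in the kidneys of rats given ischemic or toxic injury. Probes were chosen by their annotated gene symbol from a list of 7 genes (Bcl2, Bcl2l1, Bcl2l11, Mcl1, Bax, Bid and Bak1). Of these, 5 genes had a probe, among 6444 gene symbols in all, with 2 probes each for Bax and Bcl2l1 and 7 probes together. Bid and Bcl2l11 were not analysed here. All 7 probes were measured in every rat and all passed the filter on low values.

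Proteins of this family decide whether the outer membrane of the mitochondrion is opened, the step that releases cytochrome c and starts the caspase cascade. Mcl1, Bcl2l1 (which encodes Bcl-xL) and Bcl2 hold the membrane closed, Bax and Bak1 form the pores, and BH3-only proteins such as Bid set the balance between them. In the kidney, tubule cells are the main cells lost after ischemia and after nephrotoxins, and Bax and Bak1 have been studied as mediators of that loss.

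The samples were kidneys of male rats aged 6 to 8 weeks, hybridised to 36 one-colour CodeLink oligonucleotide arrays from 31 rats in 9 groups. Untreated normal rats numbered 5. Ischemia of both kidneys lasted 40 min and was followed by 2 h (4 rats) or 8 h (3 rats) of reperfusion, and in 3 other rats, studied at 2 h, the ischemia was combined with an intravenous dose of 50 µg of αMSH, the melanocortin peptide alpha-melanocyte stimulating hormone. Mercuric chloride, a proximal tubule toxin, was injected at 4 mg/kg and studied at 2 h (3 rats) and 8 h (3 rats), and cisplatin, a DNA-binding drug, was injected at 20 mg/kg and studied at 2 h (3 rats). As controls, 3 rats had sham surgery of 40 min and were studied 8 h later, and 4 rats were volume depleted for 24 h with furosemide, a loop diuretic given at 20 mg/kg at the start and again at 8 h, and a diet low in sodium. The sham group was studied at 8 h only, so surgery and ischemia cannot be told apart at 2 h.

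Levels are given as intensity in multiples of the array median, and changes as log2 differences ± standard error. The arrays fell into lots of 24 and 12, with 3 normal rats in lot 1 and 2 in lot 2. Lot 2 also held the rats given sham surgery, cisplatin, or mercuric chloride for 8 h, lot 1 all other treated rats, and each group was set against the normal rats of its own lot. The lots follow the numbering of the normal rats and an earlier look at these data, since the labels give no lot. The correlation of each treated array with the lot 2 minus lot 1 difference of the normal rats was at most 0.033 in lot 1 and at least 0.444 in lot 2. A change was called at a Benjamini-Hochberg adjusted p under 0.05 in limma over all probes tested. Proximal tubule markers (11 of 14 listed genes had a probe, none at the floor of 0.1) were bright, with a summed level of 412.8 to 574.7 in normal rats of lot 1. In an earlier look at these data 3 arrays stood apart, those of normal rat 1 and ischemia 8 h rat 3 and 1 of the 2 of volume depletion rat 1, and they are called the doubted arrays below. In bulk tissue, fewer cells of a type and less RNA per cell cannot be told apart.

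Promoter windows of the 250 bases before the gene start were taken from RefSeq on the rat assembly GRCr8, which held an entry for 4 of the 5 genes. The windows of Mcl1 and Bak1 are shown because these genes had the largest called changes of the family, one at 2 h and the other at 8 h of ischemia. The Mcl1 window is chr2:185907918-185908167 on the plus strand and the Bak1 window chr20:5110975-5111224 on the minus strand, both written 5′ to 3′ along the gene. Capitals mark matches, on either strand, to any of 8 searched motifs.
Mcl1: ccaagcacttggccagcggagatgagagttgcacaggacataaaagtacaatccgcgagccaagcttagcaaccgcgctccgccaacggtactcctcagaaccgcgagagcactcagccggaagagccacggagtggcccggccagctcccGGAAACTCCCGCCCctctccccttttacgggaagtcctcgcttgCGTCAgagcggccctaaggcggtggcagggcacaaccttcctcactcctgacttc
Bak1: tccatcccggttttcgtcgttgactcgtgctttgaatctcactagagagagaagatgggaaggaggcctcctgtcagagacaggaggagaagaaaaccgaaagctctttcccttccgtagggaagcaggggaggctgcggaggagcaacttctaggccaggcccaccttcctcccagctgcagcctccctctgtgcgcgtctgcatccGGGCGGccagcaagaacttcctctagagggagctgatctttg
The motifs were an AP-1 site (TGACTCA), a CRE core (TGACG), a STAT site (TTCNNNGAA), a heat shock element (GAANNTTC), a GC box (GGGCGG), an Egr site (GCGNGGGCG), and, by name alone, an NF-kB site and a p53 decamer. The Mcl1 window held an NF-kB match at 99 to 90 bases before the start, which overlapped a GC box match at 91 to 86, and a CRE core match at 55 to 51. Among 33469 rat promoter windows of the same length, 0.3% held the NF-kB letters, 30.5% the GC box and 18.2% the CRE core. The Bak1 window held 1 match, a GC box at 42 to 37 bases before the start. Of the 4 windows listed for Bcl2l1, 2 held no match, among them the one farthest upstream, and 2 overlapping windows held the same pair of STAT matches, letters found in 7.7% of all windows. The 1 window of Bcl2 held no match. These matches describe the letters only.

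Among the survival genes, Mcl1, which encodes a short-lived protein, gave the largest estimated change from normal of the 5 genes. Its level was 1.82, 1.75 and 1.60 in the normal rats of lot 1. After 2 h of reperfusion it was 5.79, 5.49, 4.49 and 5.62 in the ischemia rats. With αMSH it was 4.27, 3.88 and 5.58. Every ischemic kidney at 2 h lay above every normal kidney, and the αMSH rats overlapped the rats without it. Mcl1 rose by 1.63 ± 0.17 after ischemia (3.09-fold; adjusted p 1.27e-07) and by 1.39 ± 0.18 after ischemia with αMSH (2.62-fold; adjusted p 4.47e-06). It was the 1 member of 5 called in each of these comparisons, where 14.7% and 13.3% of all probes tested were called. The difference between the αMSH rats and the ischemia rats was -0.24 ± 0.17, with a 95% interval from -0.58 to 0.11, and was not called. In that comparison limma called 0 of 9458 probes (0%), with 342 at an unadjusted p under 0.05, 2 of them the main probes of Bcl2l1 and Bak1.

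At 8 h of reperfusion Mcl1 stood at 4.03, 4.66 and 2.21. All 3 rats lay above the normal rats, and rat 3, one of the doubted arrays, lay well below the other two. Mcl1 rose by 1.01 ± 0.18 against normal (2.01-fold; adjusted p 6.57e-05). That call was lost with only the groups compared and their normal rats in the fit (1.01 ± 0.30, adjusted p 0.0583). It was lower at 8 h than at 2 h of reperfusion by -0.62 ± 0.17 (adjusted p 0.00499). That decline rested on rat 3, since without it the difference was -0.30 ± 0.13 and not called (adjusted p 0.074).

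Mercuric chloride did not move Mcl1 past the threshold at 2 h, with levels of 1.66, 1.85 and 1.49 that overlapped the normal rats of lot 1 and a change of -0.05 ± 0.18. The difference between the 2 h groups was large, since Mcl1 was lower after mercuric chloride than after ischemia by -1.68 ± 0.17 (adjusted p 9.63e-08). In the volume depleted rats the levels were 2.15, 1.91, 2.41 and 2.27, all above the 3 normal rats, and the change of 0.34 ± 0.17 was not called.

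In lot 2 the reading of Mcl1 turned on the normal rats. Normal rats 11 and 12 had levels of 0.962 and 0.949, below every other rat of the study. Mercuric chloride rats at 8 h had 1.64, 1.83 and 1.55, cisplatin rats 1.58, 1.78 and 1.67, and sham rats 1.55, 1.48 and 1.55. The 3 treated groups therefore lay close to each other and all above the 2 normal rats. Mcl1 rose by 0.80 ± 0.20 at 8 h of mercuric chloride (adjusted p 0.00873). The changes were 0.81 ± 0.20 after cisplatin (adjusted p 0.0734) and 0.68 ± 0.20 after sham surgery (adjusted p 0.226), neither of them called. Set against the sham rats, the mercuric chloride rats differed by 0.13 ± 0.18, which was not called, with an interval from -0.24 to 0.50. With all 5 normal rats as 1 reference and no lot term, the 8 h mercuric chloride change was 0.29 ± 0.21 (adjusted p 0.362). The call was also lost without normal rat 11 (adjusted p 0.0723) or normal rat 12 (adjusted p 0.0828). Without the doubted arrays, Mcl1 was called in the cisplatin and sham rats as well, with adjusted p of 0.00227 and 0.0164. Those arrays are all of lot 1, so the estimates stayed at 0.81 and 0.68. Only the standard error changed, from 0.20 to 0.14, through the spread shared by all groups. Whether these 2 rats or the array lot were low in Mcl1 cannot be told apart. Against the sham rats, the ischemia 8 h rats differed in Mcl1 by 0.33 ± 0.27, a difference of each group's change from its normal rats, which was not called. Without ischemia 8 h rat 3 that difference was 0.65 ± 0.19 and was called (adjusted p 0.0114). Between the 8 h injuries the Mcl1 changes differed by -0.20 ± 0.27, mercuric chloride minus ischemia, which was not called.

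**Figure D1:**
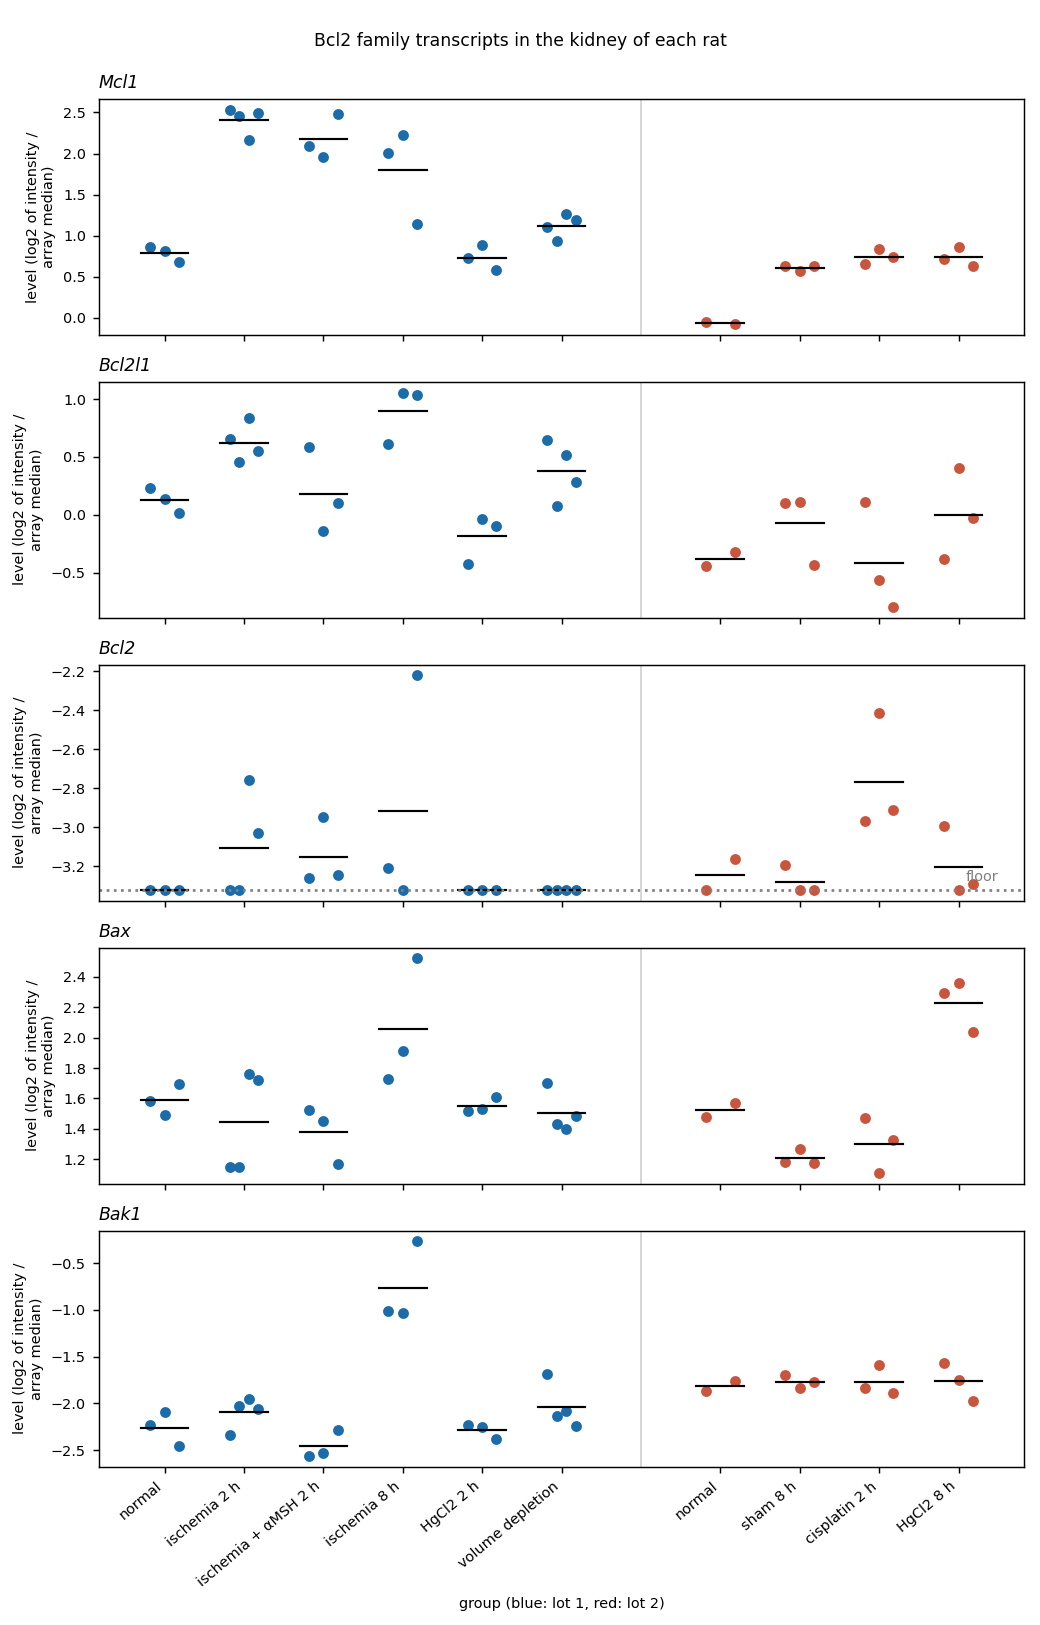
Level of each member (log2 of intensity over the array median) in every rat, by group, with lot 1 in blue, lot 2 in red and a bar at the group mean. The 2 normal rats of lot 2 are the lowest points for Mcl1, and the 3 ischemia 8 h rats are the highest for Bak1.

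Bcl2l1, the gene of Bcl-xL, was measured by 2 probes. On its brighter probe (U72349) the normal rats of lot 1 had 1.17, 1.10 and 1.01. The ischemia rats had 1.57, 1.37, 1.79 and 1.47 at 2 h. At 8 h they had 1.53, 2.08 and 2.05. Both ischemia groups lay wholly above the normal rats. The change at 8 h was a called rise of 0.77 ± 0.23 (1.71-fold; adjusted p 0.0075), while that at 2 h, 0.50 ± 0.21, was not called (adjusted p 0.125). The 2 h change was called with only the groups compared and their normal rats (0.50 ± 0.13, adjusted p 0.0376). It was also called with no lot term (0.70 ± 0.20, adjusted p 0.0119). That reference also took in normal rats 11 and 12 of lot 2, which were lower on this probe, at 0.734 and 0.799. The estimate with no lot term thus mixes the lot with the injury. The difference between the times was 0.28 ± 0.21 and was not called, with an interval from -0.16 to 0.71. The other probe (U72350) gave 0.58 ± 0.27 at 2 h (adjusted p 0.169) and 0.63 ± 0.29 at 8 h (adjusted p 0.0849), neither called. On that probe ischemia 8 h rat 3 was at 0.212 against 0.370 and 0.524 in the other two. The normal rats had 0.264 and 0.299, both above rat 3, and 0.142 in normal rat 1, one of the doubted arrays.

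At 2 h of mercuric chloride Bcl2l1 stood at 0.744, 0.974 and 0.936, below all 3 normal rats, a change of -0.31 ± 0.23 that was not called. Against ischemia at 2 h it was lower by -0.81 ± 0.21 (adjusted p 0.00905), and with Mcl1 it made 2 of 5 members called there, where 15.1% of probes were called. That call was lost without mercuric chloride 2 h rat 1 (-0.69 ± 0.24; adjusted p 0.0685) and on the other probe (-0.61 ± 0.27; adjusted p 0.139). The αMSH rats had 1.5, 0.910 and 1.07, so that 1 of them lay with the ischemia rats and the others within or below the normal range. Their difference from ischemia alone was -0.44 ± 0.21, which was not called, with an interval from -0.88 to -0.01. On the other probe it was -0.28 ± 0.27, also not called, with an interval from -0.84 to 0.27. In lot 2 the normal rats had 0.734 and 0.799, the sham rats 1.07, 1.08 and 0.741, the cisplatin rats 1.08, 0.676 and 0.575, and the 8 h mercuric chloride rats 0.766, 1.32 and 0.979. These groups overlapped and none of their changes was called. The volume depleted rats had 1.57, 1.06, 1.43 and 1.21, overlapping the normal rats of lot 1, with no call.

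Bcl2, the founding survival gene of the family, was at or near the limit of measurement. Its probe was above the floor in 14 of 31 rats, with a highest level of 0.214 in ischemia 8 h rat 3, and it lay at the floor in every normal rat of lot 1, every mercuric chloride rat at 2 h and every volume depleted rat. The 3 cisplatin rats were above the floor, at 0.128, 0.187 and 0.133, against 0.112 in normal rat 12 and the floor in normal rat 11. Limma called Bcl2 in 0 of the 17 comparisons, and no fold is given because the reference lies at the floor. Without ischemia 8 h rat 1 or rat 2 Bcl2 was called at 8 h of ischemia (adjusted p 0.0417 and 0.0202), where rat 3 then stood with 1 other rat.

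Bak1, one of the pore-forming effectors, rose at 8 h of ischemia and was called in no other group against normal. Its level in the normal rats of lot 1 was low, at 0.212, 0.235 and 0.183, not far above the floor of 0.1. After 2 h of reperfusion it was 0.198, 0.246, 0.258 and 0.240, and at 8 h 0.495, 0.489 and 0.830. The folds of Bak1 start from these low levels. The 2 h rats overlapped the normal rats, and all 3 rats at 8 h lay above every other rat of the study. Bak1 rose by 1.49 ± 0.17 at 8 h (2.80-fold; adjusted p 1.28e-07), with a change of 0.16 ± 0.16 at 2 h that was not called. The rise from 2 h to 8 h was itself called, at 1.32 ± 0.16 (2.50-fold; adjusted p 4.37e-07). The sham rats at 8 h had 0.309, 0.279 and 0.293 against 0.274 and 0.294 in the normal rats of lot 2, and the ischemia change exceeded the sham change by 1.44 ± 0.25 (adjusted p 0.000177).

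Mercuric chloride gave no such rise at 8 h, where Bak1 was at 0.338, 0.298 and 0.255 and its change of 0.06 ± 0.19 was not called. The ischemia and mercuric chloride changes at 8 h differed by -1.43 ± 0.25, mercuric chloride minus ischemia (adjusted p 0.000416), and Bak1 was the 1 member called there, where 11.8% of probes were called. Cisplatin rats had 0.279, 0.332 and 0.270, and the αMSH rats 0.170, 0.174 and 0.205, neither group called against normal. After 2 h of mercuric chloride the levels were 0.213, 0.211 and 0.192, within the normal range. Volume depletion rat 1, at 0.311 and with a doubted array, lay above the other 3 rats of its group, which were at 0.228, 0.237 and 0.212.

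Bax, the other pore-forming effector and a p53 target, was called in both 8 h injuries, as Mcl1 was. On its brighter probe (NM_017059) the levels at 8 h of mercuric chloride were 4.89, 5.13 and 4.11, against 2.78 and 2.97 in the normal rats of lot 2. The sham rats had 2.27, 2.41 and 2.26. The mercuric chloride rats lay above all of these, and the sham rats lay below both normal rats. Bax rose by 0.71 ± 0.19 against normal (1.63-fold; adjusted p 0.017) and by 1.02 ± 0.17 against sham (2.03-fold; adjusted p 0.000192). The other probe (AF235993) read 3.21, 3.33 and 2.15 in these rats, against 1.47 and 1.61 in the normal rats and 1.46, 1.28 and 1.19 in the sham rats. It gave 1.12 ± 0.33 against sham, also called (adjusted p 0.0235), and 0.89 ± 0.37 against normal, not called (adjusted p 0.138). The second probe was called in both without the doubted arrays (0.89 ± 0.15, adjusted p 0.000149, against normal). No array of lot 2 was left out there, so the estimate was the same and only the shared spread was smaller. The first probe at 2 h of mercuric chloride was at 2.87, 2.89 and 3.05, within the normal range, and the change from 2 h to 8 h, 0.74 ± 0.26, was not called (adjusted p 0.243). The second probe read 1.98, 2.03 and 1.94 at 2 h, above every normal rat of lot 1 (1.01, 1.71 and 1.84). Its change from normal there was 0.43 ± 0.33 and its change from 2 h to 8 h 0.45 ± 0.50, neither called. The call against normal on the first probe was lost without normal rat 11 (0.66 ± 0.25; adjusted p 0.156), without normal rat 12 (adjusted p 0.0889), and without mercuric chloride 8 h rat 1 (adjusted p 0.0557) or rat 2 (adjusted p 0.0709).

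The Bax probes disagreed most, at 8 h of ischemia, in rat 3. At 2 h, 2 of 4 ischemia rats and all 3 with αMSH lay below the normal mean on the first probe and above it on the second. The first probe read 3.32, 3.76 and 5.73 at 8 h, the highest in rat 3, against 2.99, 2.81 and 3.23 in the normal rats of lot 1. The second read 2.53, 2.89 and 0.662, the lowest in rat 3, against 1.01, 1.71 and 1.84. All 3 ischemia rats thus lay above the normal rats on the first probe, and 2 of 3 did on the second. The change was 0.47 ± 0.17 on the first probe, which was called (adjusted p 0.0338), and 0.20 ± 0.33 on the second, which was not. Without ischemia 8 h rat 3 the first probe gave 0.23 ± 0.16 (adjusted p 0.259). That call was also lost without normal rat 1 (adjusted p 0.0669) and without normal rat 2 (adjusted p 0.107). Without the doubted arrays the second probe gave a called rise of 0.61 ± 0.16 (adjusted p 0.00383), and the first 0.23 ± 0.17 (adjusted p 0.307). From 2 h to 8 h the first probe rose by 0.61 ± 0.16 (adjusted p 0.0044), which was 0.38 ± 0.15 without rat 3 and not called (adjusted p 0.0577), and the second changed by -0.04 ± 0.31. Without the doubted arrays the second probe rose by 0.64 ± 0.14 between these times (adjusted p 0.000821).

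At 2 h of ischemia Bax read 2.22, 2.22, 3.39 and 3.29 on the first probe, straddling the normal rats, and 1.70, 1.61, 1.96 and 1.68 on the second. The αMSH rats had 2.87, 2.74 and 2.25 on the first probe, and neither probe was called at 2 h, with or without αMSH. In the volume depleted rats the first probe read 3.25, 2.70, 2.64 and 2.80 and in the cisplatin rats 2.78, 2.16 and 2.51, neither group called. Against the sham rats the 8 h ischemia change of the first probe was higher by 0.78 ± 0.26 (adjusted p 0.0312), and it was 0.55 ± 0.23 and not called without ischemia 8 h rat 3 (adjusted p 0.0747). Leaving out sham rat 1 or 3, or normal rat 2, 11 or 12, also ended that call, with adjusted p from 0.056 to 0.115. On the second probe the same difference was 0.44 ± 0.50. The same opposition of the probes was seen in the first array of volume depletion rat 1, where the log2 levels were 1.98 on the first and 0.03 on the second probe, against 1.42 and 0.67 on the rat's other array. Over all 31 rats the 2 Bax probes correlated at r = 0.273 and the 2 Bcl2l1 probes at r = 0.685, on differences from the normal rats of the lot. Which Bax probe was right in these rats was not tested.

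**Figure D2:**
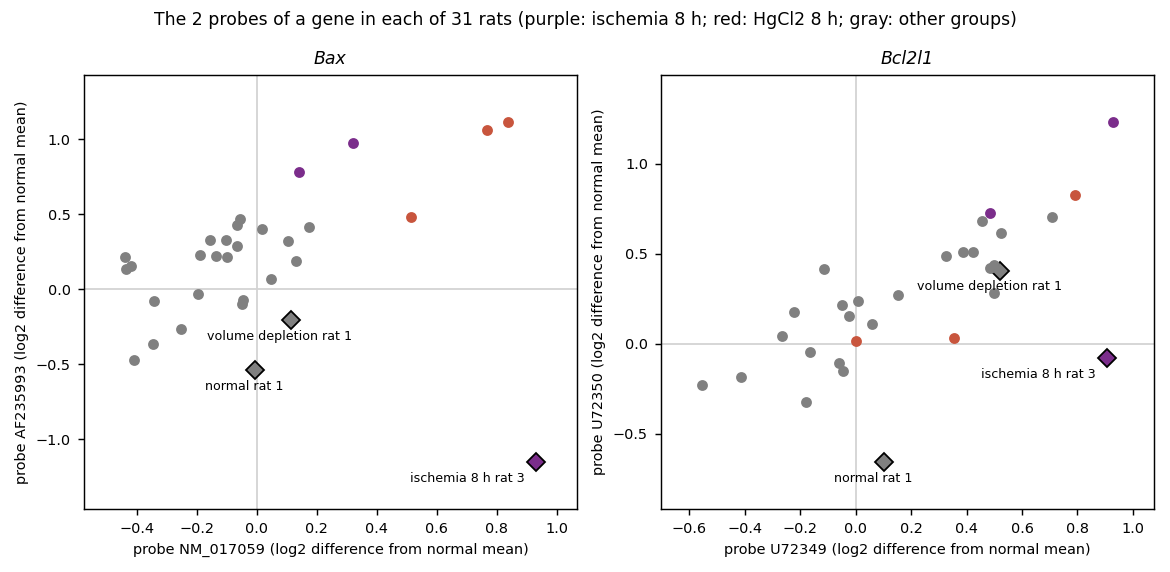
Differences from the normal mean of the lot (log2) on the 2 probes of Bax (left) and of Bcl2l1 (right), 1 point per rat, with ischemia 8 h in purple, mercuric chloride 8 h in red, other groups in gray, and diamonds for rats with a doubted array. Ischemia 8 h rat 3 is at 0.93 on one Bax probe and -1.15 on the other, while the 3 mercuric chloride rats are above 0 on both.

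By injury, 4 of 5 members were called at 8 h of ischemia (Mcl1, Bcl2l1, Bax and Bak1), all higher, where 41.7% of probes were called. The count was 3 of 5 without the doubted arrays, with Bax lost. The median change of the 5 members was 0.77, against 0.01 over all probes. At 8 h of mercuric chloride 2 of 5 were called (Mcl1 and Bax), both higher, where 10.9% of probes were called, with a median of 0.38 against -0.03. In limma 0 of 5 members were called at 2 h of mercuric chloride, where 7.68% of probes were called, and likewise 0 of 5 after cisplatin (0.574% of probes), sham surgery (0.351%) and volume depletion (0.169%). At an unadjusted p under 0.05 those counts were 0 at 2 h of mercuric chloride, 2 after cisplatin (Mcl1 and Bcl2), 1 after sham surgery (Mcl1) and 0 after volume depletion. From 2 h to 8 h of ischemia 3 of 5 were called (37.7% of probes), with Bak1 and Bax higher and Mcl1 lower, and 2 (Bak1 and Bax) without the doubted arrays. From 2 h to 8 h of mercuric chloride 0 of 5 were called in limma (0.693% of probes), with 2 (Bax and Mcl1) at an unadjusted p under 0.05. Against sham, ischemia at 8 h called Bak1 and Bax (22.9% of probes) and mercuric chloride at 8 h called Bax (13.2%), and without the doubted arrays the former pair was Bak1 and Mcl1. Cisplatin was called in 0 of 5 members against ischemia at 2 h (2.21% of probes) and in 0 of 5 against mercuric chloride at 2 h (0.949%) in limma, with 1 member at an unadjusted p under 0.05 in each. That member was Mcl1, at -0.82 ± 0.26 from ischemia (adjusted p 0.12) and 0.86 ± 0.27 from mercuric chloride (adjusted p 0.159). Mcl1 was called in both of these without the doubted arrays, and also between the times of mercuric chloride.

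Summed proximal tubule levels lay below the normal rats in both 8 h injuries and, in lot 1, in all 3 of the 2 h groups. The summed level was 412.8 to 574.7 in the normal rats of lot 1, 300.8 to 322.8 at 2 h of mercuric chloride, 360.4 to 388.8 at 2 h of ischemia and 342.1 to 402.2 with αMSH. Volume depletion, at 370.3 to 475.3, overlapped the normal rats. The level was 200.8 to 299.2 at 8 h of ischemia, and 193.2 to 247.9 at 8 h of mercuric chloride, against 356.7 to 370.1 in the normal rats of lot 2. Limma tested 10 of these genes. At 8 h of ischemia 7 were called lower (41.7% of all probes called) and at 8 h of mercuric chloride 5 (10.9%). At 2 h limma called 0 after ischemia (14.7%), 0 with αMSH (13.3%) and 1 after mercuric chloride (7.68%), Gatm. At an unadjusted p under 0.05 these 2 h counts were 3, 1 and 5. Gatm was also the 1 gene called lower after volume depletion (0.169%). The summed level of markers of the segments beyond the proximal tubule (7 of 10 with a probe) was 40.1 to 58.2 at 8 h of ischemia, against 80.6 to 123.5 in normal rats, and 86.5 to 108.9 at 8 h of mercuric chloride, against 86.9 to 101.1. Limma tested 6 of these markers and called 4 lower at 8 h of ischemia. At 8 h of mercuric chloride it called 0 (0 at an unadjusted p under 0.05). The 14 leukocyte markers with a probe, of 18 listed, summed to 66.2 to 89.4 at 8 h of ischemia, against 57.2 to 75.4, and to 51.8 to 88.7 at 8 h of mercuric chloride, against 46.3 to 48.9. The lower ends 66.2 and 57.2 were ischemia 8 h rat 3 and normal rat 1, both doubted arrays. The other ischemia 8 h rats, at 89.4 and 80.7, lay above every normal rat of lot 1. The same doubted rats set an end of these ranges in the proximal, distal, endothelial and glomerular lists. Of the 14 leukocyte genes 5 were called at 8 h of ischemia, all higher, a share near the 41.7% of all probes. The largest rises were S100a9 (5.02 ± 0.46), Cd14 (2.00 ± 0.26) and C1qb (1.83 ± 0.24). At 8 h of mercuric chloride 2 were called higher (10.9%), S100a9 (3.53 ± 0.51) and C1qb (0.96 ± 0.27). S100a9 was also the 1 called after sham surgery (2.47 ± 0.51, all probes 0.351%). At 2 h of ischemia S100a9 and Cd14 were called higher and Csf1r, Ly86 and Ptprc lower (14.7%). Of the red blood cell list 2 of 6 genes had a probe, and they summed to 1.91 to 3.39 at 2 h of ischemia, 1.7 to 2.78 with αMSH and 1.48 to 1.92 at 8 h, all above the 0.83 to 1.41 of normal rats. They summed to 1.81 to 2.1 at 8 h of mercuric chloride, against 0.98 to 1.17. Of these 2 genes Alas2, the first enzyme of heme synthesis in red cells, was called higher in those 4 groups, and Slc4a1, the red cell anion exchanger, was called lower at 8 h of ischemia. The endothelial list (5 of 7 with a probe) summed to 10.64 to 16.48 at 8 h of ischemia against 11.94 to 14.78, and to 13.35 to 16.84 at 8 h of mercuric chloride against 11.22 to 14.49. Of its genes Pecam1 was called higher and Vwf and Flt1 lower at 8 h of ischemia, and 0 in limma at 8 h of mercuric chloride (1 at an unadjusted p under 0.05). The glomerular list (3 of 5) summed to 3.07 to 3.93 at 8 h of ischemia against 1.18 to 5.04, and the adrenal and fat list (5 of 8) to 2.99 to 3.43 against 2.55 to 3.04, with 0 genes of either called in limma there (0 and 1 at an unadjusted p under 0.05). The part of these markers in the Bak1, Bax, Bcl2l1 and Mcl1 results was not tested.

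**Figure D3:**
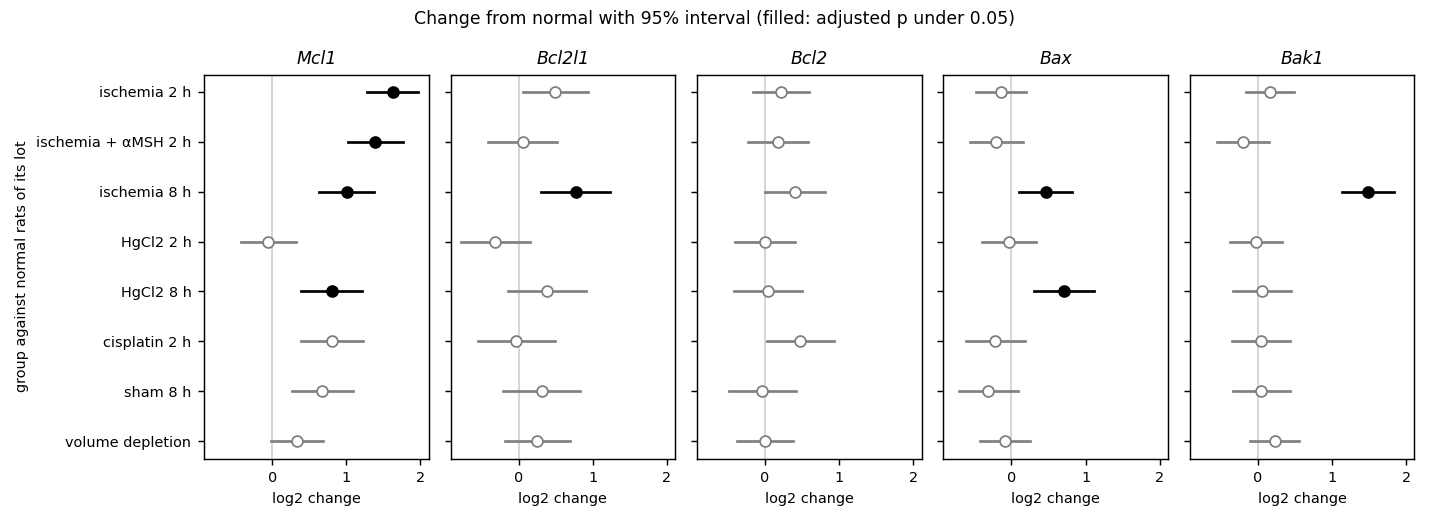
Change of each member from the normal rats of its lot (log2, 1 panel per gene), with the limma estimate as a point and its 95% interval as a line, filled black where the adjusted p was under 0.05. Mcl1 is filled in 4 of 8 comparisons, Bak1 only at 8 h of ischemia, and Bcl2 in none.

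Other genes of the cell death pathway were counted from 4 lists. Of the other Bcl2 family and binding partners, 10 of 23 listed genes had a probe. At 2 h of ischemia 2 of the 10 tested were higher and 1 lower (all probes 14.7% called), led by Bag3, a co-chaperone of Hsp70 (2.05 ± 0.44), and Bcl2l13, a mitochondrial relative of Bcl2 (0.76 ± 0.16), while Bnip3l, a mitophagy receptor, fell by 0.31 ± 0.08. With αMSH 2 of 10 were called (all probes 13.3%), the same 2 genes higher, Bag3 by 2.46 ± 0.47 and Bcl2l13 by 0.62 ± 0.17. At 8 h of ischemia 3 were higher and 1 lower, so 4 of 10 were called where 41.7% of all probes were, with Bag3 at 1.69 ± 0.47, Bcl2l13 at 0.87 ± 0.17 and Bnip2 at 0.84 ± 0.11, and Bnip3l fell by 0.81 ± 0.09. The list medians were 0.08 at 2 h and 0.00 at 8 h, against -0.06 and 0.01 over all probes. In the other 5 groups 0 genes of this list were called in limma, with 1 at an unadjusted p under 0.05 at 2 h of mercuric chloride, 3 at 8 h, and 0 in each of the others. Of all probes 7.68% and 10.9% were called at these times of mercuric chloride, and at most 0.574% in the others. With the doubted arrays left out Bag3 was also called at 2 h and 8 h of mercuric chloride, Bnip2 at 2 h of ischemia (0.31 ± 0.09) and Bag1 at 8 h of ischemia (0.55 ± 0.12). At 8 h of mercuric chloride the Bag3 estimate was 1.55 with or without these arrays, which are all of lot 1. Only the shared spread was smaller there.

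Downstream of the mitochondrion, the list of apoptosome, caspases and inhibitors had 11 of 23 genes with a probe. At 2 h of ischemia 0 of 11 were called in limma (all probes 14.7%), with 3 at an unadjusted p under 0.05. Without the doubted arrays 1 was higher (Birc2, an inhibitor of apoptosis protein, 0.54 ± 0.16). At 8 h 3 were higher and 2 lower, with a list median of 0.16 (0.01 over all probes). The 5 of 11 called there stood beside 41.7% of all probes, a share near the background. Dffa, the inhibitor of the caspase-activated DNase, rose by 0.92 ± 0.18 and Casp2, an initiator caspase, by 0.82 ± 0.30. Aifm1, a flavoprotein of the mitochondrial intermembrane space, fell by 1.05 ± 0.12. Without the doubted arrays 1 was higher (Dffa at 0.65 ± 0.15) and 1 lower (Aifm1), and Casp2 was at 0.72 ± 0.38 and not called (adjusted p 0.127). At 8 h of mercuric chloride 1 of 11 was called, a share near the 10.9% of all probes. It was Parp1, a DNA repair enzyme cleaved by caspases, which fell by 0.46 ± 0.15. At 2 h 2 of 11 were called (all probes 7.68%), Parp1 lower by 0.55 ± 0.13 and the mitochondrial nuclease Endog by 0.49 ± 0.15. With αMSH 2 of 11 were called (all probes 13.3%), Parp1 lower by 0.39 ± 0.13 and Aifm1 by 0.35 ± 0.12. Neither call held without the doubted arrays (adjusted p 0.0505 and 0.187).

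The death receptor list had 9 of 17 genes with a probe. In each of the 3 ischemia groups 4 of 9 were higher and none lower, beside 14.7% of all probes called at 2 h, 13.3% with αMSH and 41.7% at 8 h, where the share was near the background. They were Tnfrsf12a, the receptor of the cytokine TWEAK, Tnfrsf1a, the main TNF receptor, and the kinases Ripk1 and Ripk3, of which Ripk3 acts in necroptosis. Tnfrsf12a rose by 3.48 ± 0.32 at 2 h and by 4.02 ± 0.34 at 8 h (16.2-fold), and Ripk3 by 1.07 ± 0.12 and 2.30 ± 0.13 (4.92-fold). Tnfrsf1a rose by 1.43 ± 0.25 and 1.66 ± 0.27. With αMSH the rises were 3.17 ± 0.34 in Tnfrsf12a, 1.44 ± 0.27 in Tnfrsf1a and 1.02 ± 0.13 in Ripk3. After mercuric chloride 2 of 9 were called at 2 h (all probes 7.68%), Tnfrsf12a (2.38 ± 0.34) and Tnfrsf1a (1.03 ± 0.27), and 3 of 9 at 8 h (all probes 10.9%), Tnfrsf12a (3.51 ± 0.39), Tnfrsf1a (0.96 ± 0.30) and Ripk3 (0.53 ± 0.15). Tnfrsf12a was the 1 gene of this list called after cisplatin (2.07 ± 0.39; all probes 0.574%), a group in which no Bcl2 family member was called. The list medians were 0.39 at 2 h of ischemia, 0.59 at 8 h and 0.02 at 8 h of mercuric chloride, against -0.06, 0.01 and -0.03 over all probes.

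Upstream regulators of the family had 12 of 21 genes with a probe, 11 of them tested. At 2 h of ischemia 7 of 11 were higher (all probes 14.7% called), led by the transcription factors Myc (3.23 ± 0.49) and Jun (1.79 ± 0.35) and the survival kinase Pim1 (1.27 ± 0.11). With αMSH 7 of 11 were higher (all probes 13.3%), with Myc at 3.28 ± 0.52, Jun at 1.97 ± 0.37 and Pim1 at 1.42 ± 0.12. At 8 h of ischemia 7 were higher and 1 lower, 8 of 11 called beside 41.7% of all probes, with Myc at 2.82 ± 0.52, Gsk3b, a kinase that marks Mcl1 for degradation, at 1.34 ± 0.20, and Stat3, a cytokine-activated factor, at 0.90 ± 0.13, while Stat5a, of the same family, fell by 0.80 ± 0.19. Mercuric chloride at 8 h had 4 higher and 1 lower, 5 of 11 called beside 10.9% of all probes, with Myc at 2.53 ± 0.58 and Gsk3b at 1.02 ± 0.23, and Stat5a fell by 0.90 ± 0.21. Jun was called there without the doubted arrays (adjusted p 0.0485), with the same estimate of 1.19 and a smaller shared spread. At 2 h of mercuric chloride 1 of 11 was called, Myc (2.46 ± 0.52), a share near the 7.68% of all probes. After cisplatin 1 of 11 was called, Jun (2.32 ± 0.41), beside 0.574% of all probes. The list medians were 0.79 at 2 h of ischemia, 0.78 at 8 h and 0.26 at 8 h of mercuric chloride, against -0.06, 0.01 and -0.03 over all probes. After sham surgery and after volume depletion limma called 0 genes of the 4 lists (all probes 0.351% and 0.169%). At an unadjusted p under 0.05 there were 4 after sham surgery and 1 after volume depletion.

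**Figure D4:**
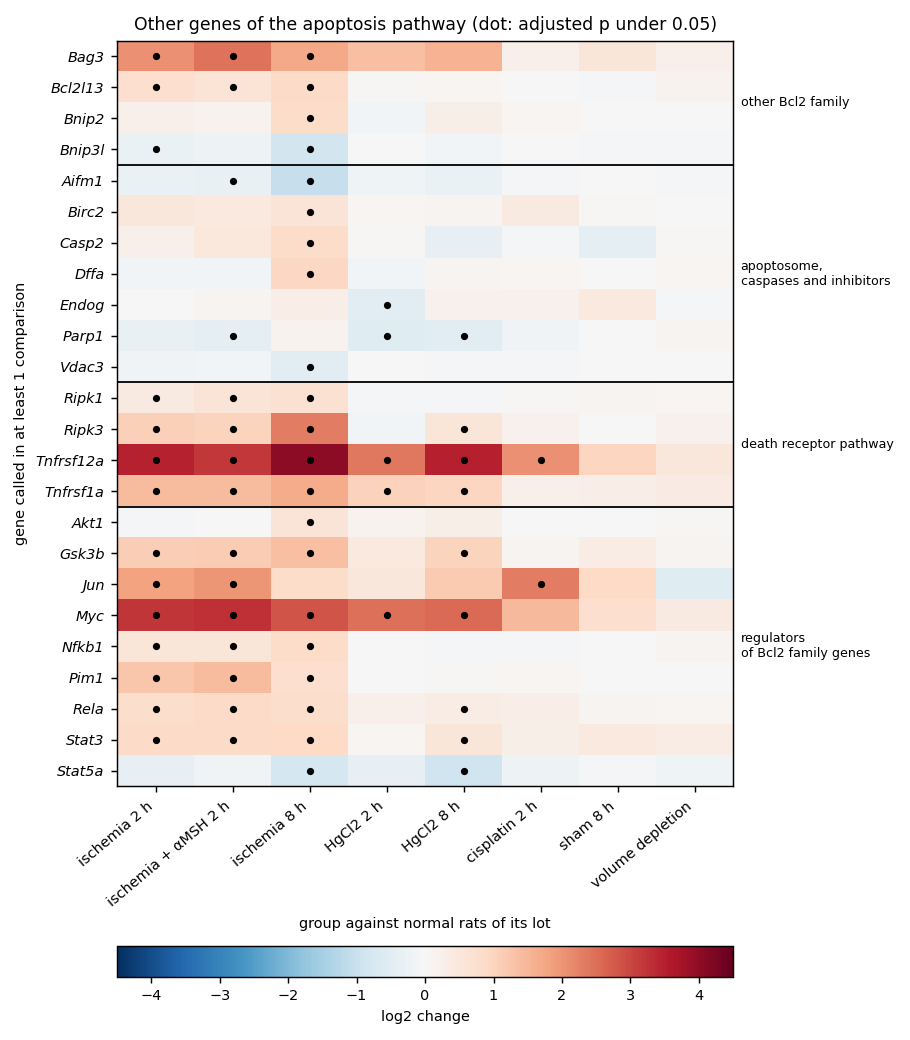
Log2 change from normal (color) of the other pathway genes called in at least 1 of 8 comparisons, by list, with a dot where the adjusted p was under 0.05. Tnfrsf12a carries a dot in 6 of 8 comparisons and Myc in 5, while Dffa carries one at 8 h of ischemia only.

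Across the 31 rats each member had its own closest profiles, by Pearson r on differences from the normal rats of the lot, among 6590 probes with 1 symbol measured in every rat. Mcl1 was most like Arc (r = 0.895), Klf4 (0.89) and Fos (0.882), all known as immediate early or early stress genes. Bak1 was most like Capn2 (0.925), Gart (0.924) and Scn3b (0.921). Bax, on its brighter probe alone, was most like Lars1 (0.852) and Wars1 (0.847), aminoacyl-tRNA synthetases, and Uchl1 (0.841). The other Bax probe, which correlated with the brighter one at r = 0.273, was not used here. For Bcl2l1, also on its brighter probe, the closest were Cc2d1a (0.729), Crk (0.724) and Pla1a (0.717). Bcl2, mostly at the floor, was closest to Pik3c2g (0.914), H1f6 (0.9) and Rexo1 (0.868). These are descriptions across rats that share groups, lots and arrays, and carry no test.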

How the data were processed

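Kidney RNA of 31 rats was measured on 36 one-colour CodeLink arrays, 2 arrays for 5 of the rats. The deposited values, of a unit named other because no source used here states it, are, as read from the values themselves, 2 raised to the intensity over the array median, so their log2 is the linear intensity (values of 0.5 mark missing spots, 0.97%). The values of sham rat 3 were offset by 2 lines (r with the other arrays 0.065 as deposited and 0.984 once moved). Intensities were divided by the array median, floored at 0.1, taken to log2 and averaged over a rat's arrays. One limma model (limma 3.58.1, R 4.3.3) with a mean for each group in each lot and 21 residual degrees of freedom gave 17 comparisons, 8 against normal and 9 between groups. A comparison across lots is the difference of the 2 changes from normal. Probes needed a level above the floor in at least 3 rats. Each comparison had its own Benjamini-Hochberg adjustment over the probes it tested, and p-values measure the spread between rats. The number of rats limits the precision. For genes with 2 probes the brighter one was used, and the other is given beside it for part of the comparisons. Genes named are all members, up to 3 called genes with the largest changes for each pathway list and comparison, and the 3 genes most like each member. Further genes were named because they made up a small count, were called in a marker list, or changed call when arrays were left out. They were chosen after their values were seen. The members and all lists (pathway genes and markers of proximal tubule, distal segments, glomerulus, endothelium, leukocytes, red blood cells, and adrenal gland and fat) were chosen with earlier results of these data known. From the list of apoptosome, caspases and inhibitors 1 gene is not reported here. The scripts were tested on simulated data. Alternatives tried were the floor, quantile normalization, the filter, the lot term, the groups in the fit, the prior, the second array, a replicate block, the other probe, the order of sham rat 3, and leaving out each rat or the doubted arrays.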

Additional observations from a re-analysis of the deposited data

Results flagged for a closer look

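Bcl2 stood at 0.112 times the array median in normal rat 12, apart from the other 4 normal rats, which were at the floor of 0.1. It was the 1 value set apart among 20 groups of members tested with Dixon's criterion, with the normal rats of both lots taken as 1 group. The criterion flags about 1 group in 20 by chance, a rate that does not hold for values tied at the floor. With the other 4 rats tied, any value above the floor would have been flagged, so the floor fixed this outcome. The change of 3 members differed between the reperfusion times of ischemia in limma, 8 h minus 2 h: Bak1 by 1.32 and Bax by 0.61, both higher at 8 h, and Mcl1 by -0.62, lower at 8 h. The Mcl1 and Bax differences lost their calls without ischemia 8 h rat 3, at -0.30 (adjusted p 0.074) and 0.38 (adjusted p 0.0577). Both groups share the same normal rats.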

How the results depend on the processing

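Counts of members called, out of 5, held within 1.5 times under floors of 0.05 and 0.2, quantile normalization, no filter, another prior and a replicate block. Against main counts given in the report, without the lot term they were 2 at 2 h of ischemia, 1 at 8 h of mercuric chloride, 2 between its times, 3 for it against 8 h of ischemia, 2 for cisplatin against either 2 h injury, and 4 for 8 h ischemia against sham. The counts at 2 h of ischemia and 8 h of mercuric chloride rest there on the normal rats of both lots. From the count between the mercuric chloride times onward, the groups compared lie in different lots. All of these counts thus also hold the lot difference. Calls over all probes rose from 1395 to 1897 at 2 h of ischemia and from 1029 to 2145 at 8 h of mercuric chloride. Between the mercuric chloride times they rose from 65 to 1632, and for mercuric chloride against ischemia at 8 h from 1111 to 3122. They rose from 207 to 2418 and from 89 to 2215 for cisplatin against ischemia and mercuric chloride. For 8 h ischemia against sham they rose from 2150 to 4193. With only the groups compared and their normal rats the member counts were 2 at 2 h of ischemia (Bcl2l1 joined, as also without the lot term) and 2 at 8 h (Mcl1 and Bax were lost). They were 1 for sham, 1 between the ischemia times, 1 for cisplatin against ischemia, 1 against mercuric chloride, and 1 for 8 h ischemia against sham. Calls over all probes at 2 h and 8 h of ischemia fell there from 1395 to 1044 and from 3947 to 1487. After sham surgery they rose from 33 to 91. Between the ischemia times they fell from 3581 to 2051, and for 8 h ischemia against sham from 2150 to 1115. For cisplatin they fell from 207 to 147 against ischemia and from 89 to 73 against mercuric chloride. With the first array of each rat the member count for 8 h ischemia against sham was also 1. With sham rat 3 in the deposited order the shared spread widened by construction, and limma called 0 members in the 3 ischemia groups, at 8 h of mercuric chloride, between the ischemia times, for mercuric chloride against ischemia at 2 h and at 8 h, and for 8 h ischemia against sham. Without the doubted arrays Mcl1 alone was called, a count of 1 each, after cisplatin, after sham surgery, between the mercuric chloride times, and for cisplatin against either 2 h injury. Calls over all probes rose there from 54 to 111 after cisplatin, 33 to 60 after sham surgery and 65 to 212 between those times. For cisplatin they rose from 207 to 358 against ischemia and from 89 to 255 against mercuric chloride. The doubted arrays are all of lot 1, so the cisplatin and sham changes from normal kept their estimates and only the shared spread was smaller. Leaving out 1 rat in turn gave counts of 3 to 5 at 8 h of ischemia, 0 to 2 at 8 h of mercuric chloride, 1 to 3 between the ischemia times, 1 to 2 for 8 h ischemia against sham and 1 to 2 for mercuric chloride against ischemia at 2 h. The 1 reversed value was Bax between the ischemia times on its other probe, -0.036. Bcl2 did not pass the filter, and so gave no value, with a floor of 0.2 and in 6 fits of only the groups compared. Where not stated, the cause of a change was not tested.

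Deviations of same-numbered rats of different groups had a median r of 0.019 over 109 pairs, 33 of them over 0.1, with a highest r of 0.536. For rats of different number the median r was -0.007 over 264 pairs, 64 of them over 0.1, with a highest r of 0.651. Both medians lay near 0, and rat numbers were not read as pairs. With the replicate block, fitted within a lot and without normal rats 11 and 12, the count at 8 h of ischemia was 4 and Mcl1 at 2 h of ischemia changed by 1.60 ± 0.18. Over all probes, the count called moved by more than 1.5 times in 9 comparisons without the lot term (at 8 h of mercuric chloride 2145 against 1029, after cisplatin 508 against 54), in 10 with only the groups compared (at 8 h of ischemia 1487 against 3947), in 16 with sham rat 3 in the deposited order (at 2 h of ischemia 300 against 1395), in 9 without the doubted arrays (at 8 h of mercuric chloride 1983), and in 2 with quantile normalization (between the mercuric chloride times 157 against 65). Single rats moved them too: 7 comparisons without normal rat 12 (at 8 h of mercuric chloride 472), 5 without normal rat 11 (there 485), 3 without normal rat 1 or rat 2, and 0 to 2 without any other. After sham surgery the count went from 33 to 9 without sham rat 1. The shares of all probes called depend on these rats. Groups of 3 to 5 rats, 2 normal rats in lot 2, and a Bcl2 signal near the floor limit what could be called.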
